A study of Bos taurus with 12 samples.

Results

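The report describes CpG positions within genes for enzymes, readers and transcription cofactors that write, remove or interpret marks on chromatin and on DNA, in bovine dermal fibroblasts. The members were the positions of the authors' list of differentially methylated CpGs whose promoter, exon or intron annotation held a symbol of a set of families (DNMT, TET, MBD, KDM, KMT, SETD, EHMT, EZH, NSD, WHSC1, PRMT, HDAC, SIRT, KAT, NCOA, NCOR, SMARC, CHD, ARID, CBX, BRD, ASXL, PRDM, TRIM and USP). This rule found 48 of the 14094 listed positions, in 29 of the 2293 genes that the list names (1.26%). The 48 positions were 46 CpGs, since 2 CpGs were listed on both strands, and they fell into 38 loci on 18 chromosomes when positions at most 100 bp apart were joined.

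Reduced representation bisulfite sequencing (RRBS) was carried out on genomic DNA of 12 untreated primary dermal fibroblast cultures at passage 6. The cultures came from 6 Holstein heifers, each sampled at 5 months (young) and again at 16 months of age (old), and the question was which CpGs differ in methylation between these ages. There was 1 culture per animal and age, and the animals were taken from the middle of a cohort ranked by cytokine response to LPS, so the spread between animals may not be that of the breed. All cultures were revived from frozen stock together, and the labels name no genetic change or treatment in any of them.

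DNA methylation is placed on CpGs of unmarked DNA by DNMT3A and DNMT3B and is copied to the new strand at replication by the maintenance enzyme DNMT1 with UHRF1. Histone tails carry acetyl groups, set by enzymes such as KAT5 and removed by deacetylases, and methyl groups, set by enzymes such as SETD8 and EHMT1 and removed by demethylases such as KDM5C. Remodelling complexes such as SWI/SNF move nucleosomes, and reader proteins such as BRD3 and CBX8 bind the marked tails. Methylation at a promoter is often associated with a silent gene, whereas methylation inside a gene body has no such simple relation to expression, and no expression values were used here, so the labelled cell type could not be checked against marker genes.

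The methylation level is the percent of reads at a position that kept a cytosine after bisulfite conversion, that is, the methylated reads over all reads on that strand. A level between 0% and 100% can come from a mixture of cells or of alleles, and these cannot be told apart in bulk DNA. Total reads over all tested positions ranged from 25962640 to 28820145 in the young cultures and from 19007741 to 31643295 in the old cultures. The members were thinly covered, with a mean over the 12 cultures of 7.83 to 23.3 reads per position and a median of 12 reads per culture. At 12 reads each read was worth 8.33 percentage points, and a culture with 6 methylated reads of 12 had an exact 95% binomial (Clopper-Pearson) interval of 21.1% to 78.9%. Such intervals cover counting error only, since PCR copies of a fragment are not separate molecules. Differences are given as young minus old in percentage points, as mean ± SD of the 6 animals.

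Not all symbols that the rule takes belong to chromatin regulators. The 6 TRIM genes encode tripartite motif proteins, of which TRIM28 (the KRAB corepressor) and TRIM33 are known to act on chromatin, and the others are known mainly as ubiquitin ligases or cytoplasmic proteins. USP21 and USP42 encode deubiquitinases, for which histones are among the known substrates. The PRDM genes mostly encode DNA-binding zinc finger factors, ARID3A and ARID3B encode DNA-binding factors outside SWI/SNF, SIRT2 is mainly a cytoplasmic deacetylase, and HDAC7 is a class IIa deacetylase with weak activity of its own. Leaving out TRIM and USP left 39 positions in 21 genes.

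Of the 48 positions, 37 (77.1%) were more methylated in the young cultures and 11 were more methylated in the old cultures. Over all 14094 listed positions 66.3% were more methylated in young cultures, and over the 4366 other listed positions in genes it was 67.5%. The authors' list was made from these ages in these cultures, so the members had to differ and their differences are a description to which no test is attached. The methods' paired test, recomputed over all 838705 tested positions (unadjusted P below 0.05) and here joined to a minimum mean difference of 10 points, called 1.68% of positions. It called 1.12% as higher in young and 0.567% as higher in old. The paper's methods state no minimum difference, and the smallest difference in the list was 9.67 points. The test with this minimum called 46 of the 48 members, 35 higher in young and 11 higher in old. Nothing is read from that count because the same contrast chose them. After Benjamini-Hochberg adjustment of the paired test over all positions, 0 positions had an adjusted P below 0.05, against 24094 at an unadjusted P below 0.05, and the smallest adjusted P of a member was 0.889. The quasi-binomial model on the reads called 10394 positions of the table, without adjustment, and 30 of the members.

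The direction was the same at every listed position in 26 of the 29 genes, but 17 of the 29 had a single listed position, where this had to be so. In some of the 12 genes with several listed positions, these share reads or are 1 CpG, so nothing is read from the count. In 20 genes the listed positions were all more methylated in young cultures, and in 6 genes (BRD3, CHD6, KAT5, PRDM14, SIRT2 and TRIM44) they were all more methylated in old cultures. DNMT3A, PRMT8 and ARID3A held positions of both directions. By class, the histone lysine methyltransferases (SETD8, EHMT1 and WHSC1L1, 5 positions) and the deubiquitinases (2 positions) were higher in young at each position. The PRDM genes had 8 positions higher in young and 2 higher in old, the remodelling and ARID proteins 7 and 2, the TRIM genes 6 and 1, the DNA methyltransferases 4 and 1, and the deacetylases 2 and 2.

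**Figure D1:**
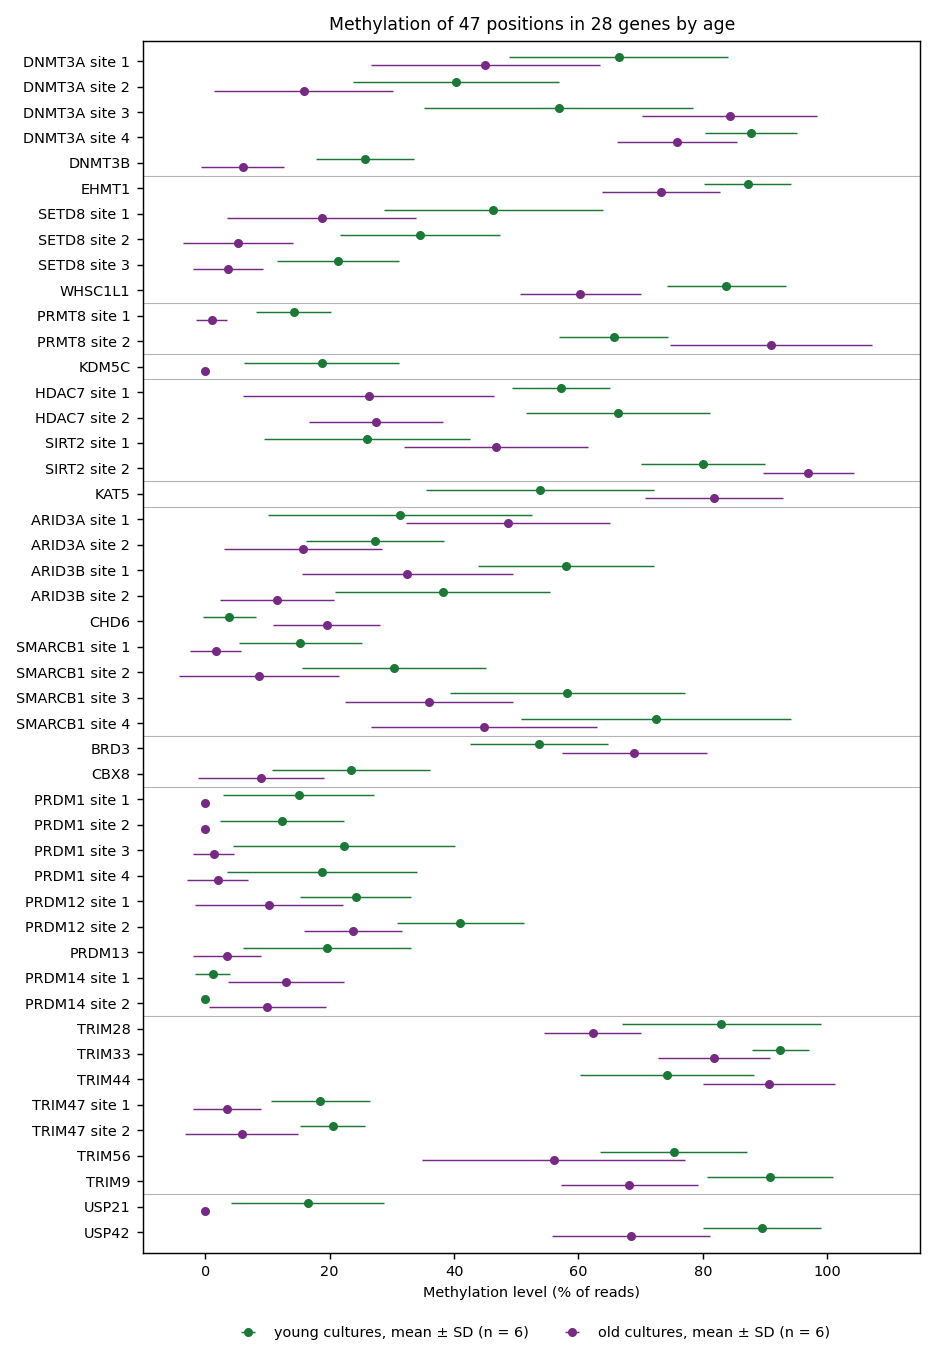
Methylation level (percent of reads, x axis) at 47 of the 48 positions, grouped by gene class; points are the mean and bars the SD of 6 young (green) and 6 old (purple) cultures. The young mean lies to the right of the old mean at 36 positions and to the left at 11, and bars drawn past 0% or 100% are the SD and not measured levels.

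The differences were of moderate size, from 10 to 38.8 points with a median of 17.5 points, against a median of 18.7 points over the other listed positions in genes. A difference of at least 25 points was seen at 10 of the 48 positions, in DNMT3A, SETD8, HDAC7, KAT5, PRMT8, ARID3B and SMARCB1. That was 20.8% of the members, against 25.9% of the other listed positions in genes. All 6 animals had the same direction at 20 positions (18 higher in young and 2 higher in old), 5 animals at 22 positions and 4 animals at 6 positions. The 20 positions were 41.7% of the members, against 42.1% of the other listed positions in genes. The young and old levels did not overlap at 3 of the 48 positions (6.25%), in CHD6, HDAC7 and USP21. It was 7.33% of the other listed positions in genes and 0.123% of all tested positions, and the members had been chosen for a difference. The 37 positions higher in young had a median old level of 15.7% and a median young level of 38.2%. The 11 positions higher in old lay at higher levels, with a median of 53.7% in young and 69% in old cultures. Over all listed positions in genes, those higher in young had medians of 48.3% in young and 21.5% in old cultures. Those higher in old had medians of 38.2% in young and 64% in old cultures.

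**Figure D2:**
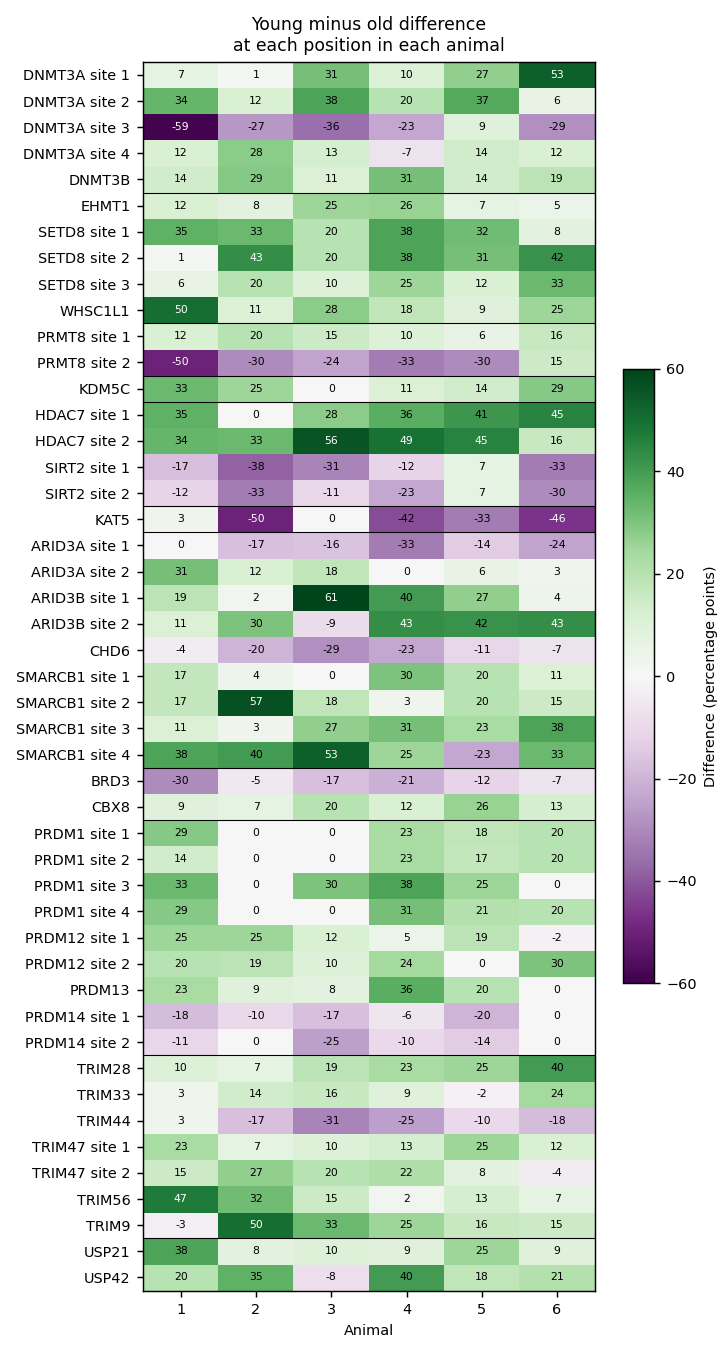
Young minus old difference (percentage points, also printed in each cell) at the same 47 positions (y axis) in each of the 6 animals (x axis), green for higher in young and purple for higher in old. Cells of the opposite colour within a line mark the animals that went against the mean, as animal 5 did at SIRT2 and DNMT3A site 3.

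The share of each animal is a description, since the paired test behind the list favours positions where the animals differ alike. At the 37 positions higher in young, the mean difference of an animal ranged from 18.1 points in animal 3 to 22.1 points in animal 4, and between 30 and 36 of the positions were higher in young in each animal. At the 11 positions higher in old, the mean difference ranged from -22.8 points in animal 4 to -11 points in animal 5. Animal 4 had all 11 positions in that direction, and animals 1, 5 and 6 had 8 of them.

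The enzymes that establish DNA methylation were both among the members. DNMT3A had 4 listed positions spread over 76494 bp of chromosome 11, with 40 tested positions between the first and the last. At 73988726 (+ strand), in an intronic CpG island, the young levels ran from 43% to 86% with a median of 69.5% and the old levels from 31% to 80% with a median of 38%. The cytosine 2 bp further on the same strand, at 73988728, had young levels of 14% to 62% (median 40.5%) and old levels of 0% to 40% (median 11%). Both were higher in young in 6 of 6 animals, by 21.5 ± 19.4 and 24.5 ± 13.8 points, and the groups overlapped at both. The read counts of these neighbours were equal in 11 of 12 cultures, so the same reads carry both and they are not separate measurements. The remaining tested positions within 200 bp of the pair, 4 in number and none of them listed, differed by 1 ± 14 points on average, 2 of them higher in young and 2 higher in old.

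The exonic positions of DNMT3A went in opposite directions. At 74047005 (- strand) the young levels were 22% to 80% with a median of 64% and the old levels 67% to 100% with a median of 84%. The difference of -27.5 ± 22 points was seen in 5 of 6 animals, animal 5 being 9 points higher in young. The 2 unlisted positions within 200 bp of it differed by 1.5 ± 5.14 points. At 74065219 (- strand) young levels of 78% to 100% (median 88%) stood against old levels of 60% to 86% (median 76.5%), a difference of 12 ± 11.2 points in 5 of 6 animals. The 3 unlisted positions within 200 bp of it went opposite on average, by -3.61 ± 10.9 points. Over the 36 unlisted positions between the first and the last listed position of DNMT3A the mean level was 35.6% in young and 35.2% in old cultures, with 15 positions higher in young and 16 higher in old. The unlisted positions of this stretch thus had nearly equal means at both ages.

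DNMT3B had a single listed position, in an intron on chromosome 13 at 62718610 (+ strand). The young levels were 11%, 25%, 25%, 29%, 31% and 33%, and the old levels were 0%, 0%, 0%, 11%, 11% and 14%. The groups overlapped between 11% and 14%, where the lowest young culture lay among old cultures of other animals. Each of the 6 animals was higher in young, by 11 to 31 points (19.7 ± 8.43), at a mean of 11.8 reads, and no other position within 200 bp was tested.

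**Figure D3:**
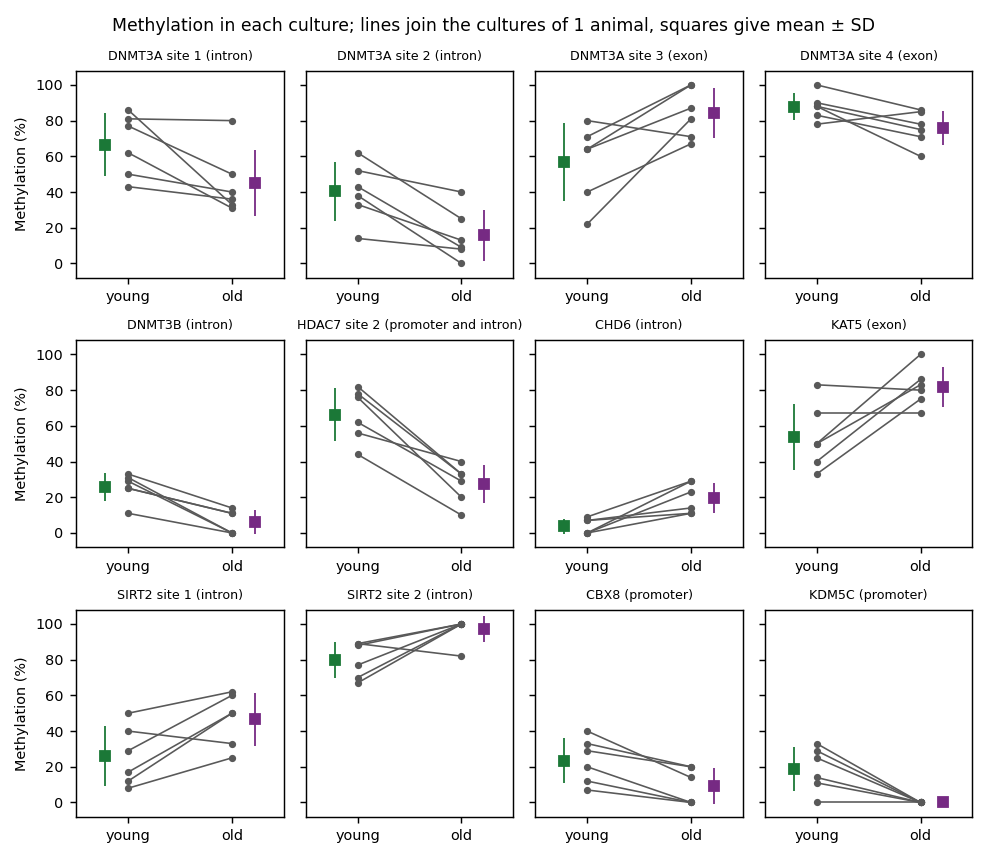
Methylation level (percent, y axis) in each young and old culture at 12 positions of DNMT3A, DNMT3B, HDAC7, CHD6, KAT5, SIRT2, CBX8 and KDM5C; each line joins the cultures of 1 animal and squares with bars give the mean ± SD of 6 cultures. The lines of DNMT3B, HDAC7 site 2 and CBX8 all fall from young to old, those of CHD6 all rise, and those of DNMT3A sites 3 and 4 run opposite ways, each in 5 of 6 animals.

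Of 16 genes of the DNA methylation machinery looked up by symbol, 5 were named in the authors' list, with 7 positions higher in young and 2 higher in old. The list named 12% of the 18523 named protein-coding genes of RefSeq (ARS-UCD2.0). How many of these the tested positions cover was not determined, and neither gene length nor coverage was matched, so nothing about this list or the gene lists below is read from their counts. Beside both methyltransferases these included UHRF1, which brings DNMT1 to replicating DNA, and the methyl-CpG binding protein ZBTB33. At the UHRF1 position, in an intron on chromosome 7, the young levels were 33% to 100% (median 58.5%) and the old levels 0% to 56% (median 36.5%), a difference of 33.3 ± 31 points in 5 of 6 animals. The promoter island of ZBTB33, on chromosome X, held positions of both directions. Position 5050753 was higher in old (-14.7 ± 10.6 points), with young levels of 0% to 11% (median 7.5%) and old levels of 17% to 33% (median 17.5%) that did not overlap. Position 5050858 in the same island had young levels of 9% to 20% (median 15.5%) and old levels of 0% to 19% (median 0%), with a difference of 10.2 ± 8.38 points. DNMT1, DNMT3L, TET1, TET2, TET3, UHRF2, MBD1 to MBD4 and TDG were not named in the list.

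Among the histone methyltransferases, SETD8 (now KMT5A, the enzyme that sets a single methyl group on lysine 20 of histone H4) had 3 listed positions within 40 bp of chromosome 17. At the intronic position 54468469 (+ strand) young levels of 30% to 77% (median 41%) stood against old levels of 0% to 44% (median 16.5%), a difference of 27.7 ± 11.4 points. The exonic positions 54468506 and 54468508, on the same strand, differed by 29.2 ± 16.2 and 17.7 ± 10.2 points. At the first of these the young levels were 20% to 54% (median 34.5%) and the old levels 0% to 21% (median 0%), and at the second they were 10% to 33% (median 21%) and 0% to 11% (median 0%). All 6 animals were higher in young at each of the 3 positions. The exonic positions had equal read counts in 12 of 12 cultures, and these were exactly 2 times the count at the intronic position in 12 of 12 cultures, so the 3 positions are read from shared fragments and are not separate measurements. The 5 unlisted positions within 200 bp were all higher in young as well, with means of 26.7% in young and 13.9% in old cultures, but the 6 animals ranged from -20.6 to 38.4 points and the mean difference was 12.8 ± 22.7 points. At the partner strands of the exonic positions, 3 of 6 animals were higher in young.

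EHMT1 and WHSC1L1 each had a single listed position, in introns. EHMT1, which methylates lysine 9 of histone H3 together with its partner EHMT2, was at 87.2% in young and 73.3% in old cultures, a difference of 13.8 ± 9.33 points with all 6 animals in that direction. Its 9 unlisted neighbours within 200 bp went opposite on average (-1.93 ± 6.49 points), with 4 of them higher in young. Among them, the opposite strand of the same CpG was higher in young by 7.67 ± 16.5 points, in 4 of 6 animals. At WHSC1L1 (now NSD3, a lysine 36 methyltransferase), on chromosome 27 at 33134747 (- strand), young levels of 75% to 100% (median 82%) met old levels of 50% to 75% (median 60%). Its difference was 23.5 ± 15 points in 6 of 6 animals, and the groups touched at 75%. The opposite strand of the same CpG was less methylated in young cultures, at 72.8% against 83.3% (-10.5 ± 19.5 points, 1 of 6 animals higher in young). This position is also annotated to the neighbouring gene DDHD2. Of 22 lysine methyltransferase genes looked up, 5 were named in the list, the others being SMYD2 (-23.2 points at its 1 position) and SMYD3 (-21.5 and 13.5 points).

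The protein arginine methyltransferase PRMT8 had 2 positions in exonic CpG islands on chromosome 5, 40531 bp apart, that went opposite ways. At 106812197 (- strand) the young levels were 6% to 22% (median 13.5%) and the old levels were 0% in 5 cultures and 6% in the other. The difference was 13.2 ± 4.92 points, higher in young in 6 of 6 animals, and its 13 unlisted neighbours within 200 bp differed by 2.59 ± 1.72 points in the same direction in 6 of 6 animals. The opposite strand of that CpG differed by 0.5 ± 11.6 points, with 3 of 6 animals higher in young. At 106852728 (- strand) the young levels were 50% to 75% (median 68.5%) and the old levels 60% to 100% (median 100%). The difference was -25.3 ± 21.6 points, with animal 6 opposite by 15 points. The opposite strand there differed by -6.33 ± 15.3 points, with 3 of 6 animals higher in old.

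KDM5C, which removes methyl groups from lysine 4 of histone H3 and lies on the X chromosome, was the sole lysine demethylase of the members. Its listed position was in a promoter CpG island at 96073044 (+ strand). The young cultures were at 0%, 11%, 14%, 25%, 29% and 33%, and all 6 old cultures were at 0%. The 0 methylated of 86 old reads allow a level of up to 3.49%, or of 6.98% if each pair of reads was 1 fragment, since the counts were even. This limit is 3 reads over the reads pooled from the 6 cultures, as are those of PRDM1, PRDM14 and USP21 below. It takes the 6 cultures as 1 level, and a single old culture, here with 12 to 18 reads, allows a higher one. The difference was 18.7 ± 12.5 points, with animal 3 at 0% at both ages. The coverage was even in all 12 cultures there. The 6 unlisted neighbours were at 22.8% in young and 16.7% in old cultures, a difference of 6.14 ± 14.1 points with 3 of 6 animals higher in young. Of 15 demethylase genes looked up, 1 was named in the list.

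HDAC7 had the largest difference of the 48 positions. Both strands of 1 CpG on chromosome 5 were listed, at 32636745 (+) and 32636746 (-), within the region annotated as promoter and intron. On the plus strand the young levels were 47% to 67% (median 57%) and the old levels 12% to 67% (median 20%). On the minus strand they were 44% to 82% (median 69%) in young and 10% to 40% (median 31%) in old cultures. The minus strand separated the ages without overlap and the plus strand did not, since the old culture of animal 2 was at 67%, as was its young culture. The differences were 30.8 ± 16.2 points on the plus strand (5 of 6 animals, the sixth equal) and 38.8 ± 14.2 points on the minus strand (6 of 6 animals). The strands did not have equal read counts in any culture, so they were counted from different reads, though from the same DNA. Of the 4 unlisted positions within 200 bp, 3 were higher in young, with means of 30.2% in young and 20.8% in old cultures (9.46 ± 9.17 points, 5 of 6 animals). The position 23 bp before the CpG was low in both ages and those after it were higher in young, as the plot of levels by distance shows.

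SIRT2, an NAD-dependent deacetylase, had 2 intronic positions on chromosome 18, both more methylated in old cultures. At 48862154 (+ strand), which is also in the annotated promoter of RINL, young levels of 8% to 50% (median 23%) stood against old levels of 25% to 62% (median 50%). At 48874357 (- strand) the young levels were 67% to 89% (median 82.5%), and the old levels were 100% in 5 cultures and 82% in that of animal 5. The differences were -20.7 ± 16.8 and -17 ± 14.8 points. Animal 5 was 7 points higher in young at both, and the other animals were higher in old. Of 18 deacetylase and sirtuin genes looked up, HDAC7 and SIRT2 were named in the list, with 2 positions in each direction.

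KAT5, the acetyltransferase of the TIP60 complex, had 1 listed position, in an exon on chromosome 29 at 44549311 (+ strand). The young levels were 33% to 83% (median 50%) and the old levels 67% to 100% (median 81.5%), so that the groups overlapped. The difference of -28 ± 23.6 points was the largest of the positions higher in old, but it was seen in 4 of 6 animals, with animal 3 at 67% at both ages and animal 1 at 83% and 80%. The coverage was even in all 12 cultures. Of 12 acetyltransferase genes looked up, the other named gene was CREBBP, a coactivator acetyltransferase that the symbol rule does not take, with 10 positions higher in young and 1, in its promoter island, higher in old, from -11.2 to 36.3 points.

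SMARCB1, a core subunit of SWI/SNF, had 4 listed positions in intronic CpG islands on chromosome 17, all more methylated in young cultures and within 1228 bp. At 73226121 (- strand) the young levels were 0% to 30% (median 15.5%), and 5 old cultures were at 0% and the sixth at 10%. At 73226161 (- strand) young levels of 17% to 57% (median 26%) stood against old levels of 0% to 33% (median 3.5%). These differed by 13.7 ± 11 and 21.7 ± 18.3 points, and their read counts were equal in 11 of 12 cultures. About 1 kb further, the levels were higher in both ages. At 73227318 (- strand) the young levels were 36% to 88% (median 55.5%) and the old levels 12% to 50% (median 38.5%), and at 73227348 (- strand) they were 44% to 100% (median 77.5%) and 25% to 67% (median 38.5%). The differences were 22.2 ± 13 points in 6 of 6 animals and 27.7 ± 26.5 points in 5 of 6 animals, animal 5 being 23 points higher in old at the latter. The read count at 73227318 was exactly 2 times that at 73227348 in 12 of 12 cultures, so this pair too shares fragments. Each of the 4 positions overlapped between the ages.

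The unlisted positions around SMARCB1 mostly went the same way. Near the first pair, 12 of 14 were higher in young, with means of 10.3% and 4.93% (5.40 ± 4.37 points, 5 of 6 animals). Some of them, such as 73226123 (- strand), had the same mean reads (9.17) as the listed 73226161 and may share its reads. Near the second pair, 16 of 17 were higher in young, with means of 64.6% in young and 53.3% in old cultures (11.3 ± 6.37 points), and each of the 6 animals was higher in young, by 3.71 to 22.1 points. Over all 59 unlisted positions between the first and the last listed position the difference was 3.78 ± 9.26 points, with 43 positions higher in young, 16 higher in old and 3 of 6 animals higher in young. SMARCB1 was the 1 gene of 17 SWI/SNF genes looked up that the list named.

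**Figure D4:**
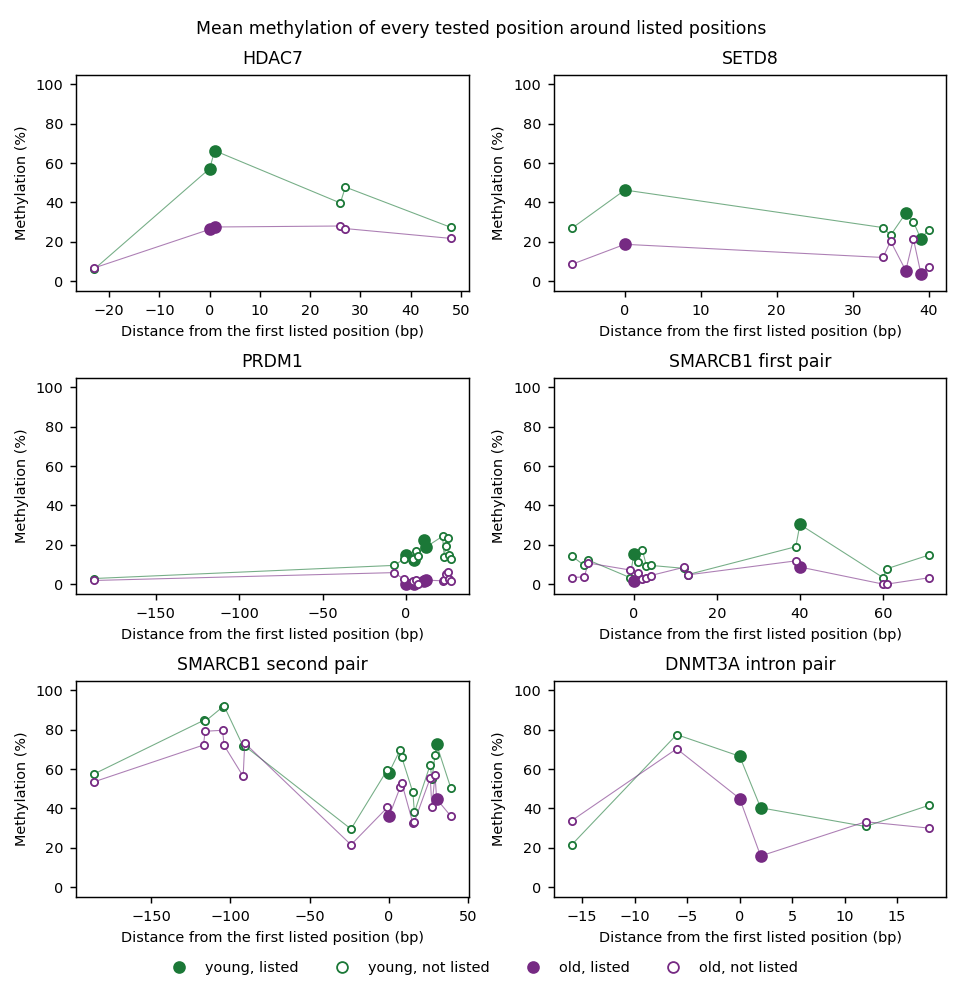
Mean methylation level (percent, y axis) of every tested position, on either strand, within 200 bp of the listed positions of HDAC7, SETD8, PRDM1, SMARCB1 (2 pairs) and DNMT3A (intronic pair), by distance in bp from the first listed position (x axis); filled circles are listed, open circles are not, green is young and purple is old, each the mean of 6 cultures. Around SETD8 and PRDM1 all open green circles lie above the open purple ones at the same distance, whereas around the DNMT3A pair 2 lie above and 2 below.

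CHD6, a nucleosome remodeller of the chromodomain family, was more methylated in old cultures at an intronic position on chromosome 13 at 70831439 (+ strand). Its young cultures were at 0% to 9% (median 3.5%) and its old cultures at 11% to 29% (median 18.5%). The levels did not overlap, and the difference was -15.7 ± 9.83 points with 6 of 6 animals in that direction. The 4 unlisted neighbours were at 2.25% in young and 4.17% in old cultures, a difference of -1.92 ± 5.03 points.

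The ARID3 genes differed from each other in pattern. ARID3A on chromosome 7 had intronic positions of both directions 10314 bp apart. At 45094118 (- strand) the young levels were 0% to 50% (median 38.5%) and the old levels 25% to 67% (median 53.5%), a difference of -17.3 ± 11 points, and 7 of its 9 unlisted neighbours were also higher in old (-7.57 ± 6.66 points, 5 of 6 animals). At 45104432 (- strand) the young levels were 13% to 44% (median 29.5%) and the old levels 0% to 38% (median 14%), a difference of 11.7 ± 11.5 points. ARID3B on chromosome 21 was higher in young at both of its intronic positions. At 34482774 (+ strand) young levels of 40% to 78% (median 55%) and old levels of 10% to 56% (median 34.5%) gave 25.5 ± 22.5 points in 6 of 6 animals. At 34486826 (+ strand) young levels of 8% to 56% (median 43%) and old levels of 0% to 20% (median 15.5%) gave 26.7 ± 21.4 points, with animal 3 opposite by 9 points. The latter position had the lowest mean coverage of all members, 7.83 reads.

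The readers BRD3 and CBX8 went opposite ways. BRD3, which binds acetylated histones, was higher in old at an intronic island position on chromosome 11 at 104877808 (- strand), with young levels of 33% to 62% (median 57.5%) and old levels of 50% to 83% (median 67%). Its difference was -15.3 ± 9.35 points in 6 of 6 animals, and its coverage was even in all 12 cultures. CBX8, a Polycomb subunit that binds methylated lysine 27 of histone H3, was higher in young in its promoter island on chromosome 19 at 53358409 (+ strand). The young levels were 7% to 40% (median 24.5%) and the old levels 0% to 20% (median 7%), a difference of 14.5 ± 7.18 points in 6 of 6 animals at a mean of 8.17 reads. Around CBX8, 11 of 12 unlisted positions were higher in young as well, with means of 12.4% in young and 5.69% in old cultures (6.71 ± 6.24 points, 5 of 6 animals). Of 25 Polycomb genes looked up, the list named CBX8 and PCGF3, a RING-finger subunit of PRC1 complexes, which had 5 positions higher in young and 1 higher in old, from -10.8 to 21.3 points.

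PRDM1 encodes BLIMP1, a repressor that drives the differentiation of B lymphocytes into plasma cells. It had 4 listed positions within 13 bp of an exonic CpG island on chromosome 9, each with little methylation in the old cultures. At 44360054 and 44360059 (- strand) all 6 old cultures were at 0%, and the 0 methylated of 86 reads allow a level of up to 3.49% at each, or of 6.98% if each pair of reads was 1 fragment, since these counts were even too. The young cultures were at 0% to 29% (median 19%) and 0% to 23% (median 15.5%), respectively. At 44360065 (+ strand) the young levels were 0% to 38% (median 29%) and the old levels 0% to 8% (median 0%), and at 44360066 (- strand), the other strand of that CpG, they were 0% to 33% (median 24.5%) and 0% to 12% (median 0%). The differences were 15 ± 12.2, 12.3 ± 10, 21 ± 16.8 and 16.8 ± 13.7 points in order of position. Each was seen in 4 of 6 animals and was 0 in the other 2, and animal 2 had 0% in its young culture at all 4. The other animal without a difference was animal 3 at the minus-strand positions and animal 6 at 44360065. The strands of the CpG at 44360065 thus disagreed in 2 young cultures. On the plus and minus strand, the young culture of animal 3 was at 38% and 0%, and that of animal 6 at 0% and 20%. Pairs of the 3 minus-strand positions had equal read counts in 10 or 11 of 12 cultures, so they come from the same reads. The 12 unlisted positions within 200 bp were all higher in young, with means of 14.8% and 2.65%, and the animals ranged from -5 to 32.4 points (12.1 ± 14.1). Some of the 12, such as 44360077 (- strand), had the same mean reads (15.9) as the listed 44360054 and may share its reads.

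The other PRDM genes are known from development and the nervous system. PRDM12, a factor of pain-sensing neurons, was higher in young at 2 intronic positions 380 bp apart on chromosome 11. At 100974687 (+ strand) young levels of 12% to 39% (median 25%) and old levels of 0% to 27% (median 7%) gave 14 ± 11 points in 5 of 6 animals. At 100975067 (- strand) young levels of 33% to 60% (median 38%) and old levels of 14% to 36% (median 21.5%) gave 17.2 ± 10.7 points in 5 of 6 animals, and its 3 unlisted neighbours were higher in young in 6 of 6 animals (12.6 ± 5.96 points).

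PRDM13, a neural factor, was higher in young in its promoter on chromosome 9 at 50883070 (- strand), with young levels of 0% to 36% (median 21.5%) and old levels of 0% to 11% (median 0%). Its difference was 16 ± 12.9 points, and its 20 unlisted neighbours differed by 1.39 ± 2.76 points. PRDM14, a factor of germ cells and pluripotent cells, was the 1 PRDM gene higher in old, at 2 positions of its promoter island on chromosome 14. At 35916344 (+ strand) 5 young cultures were at 0% and the sixth at 7%, and the old levels were 0% to 25% (median 13.5%). At 35917179 (- strand) all 6 young cultures were at 0%, and the old levels were 0% to 25% (median 10.5%). The 0 of 44 young reads allow a level of up to 6.82%, or of 13.6% if each pair of reads was 1 fragment. The latter is above the old mean of 10%. The differences were -11.8 ± 7.86 and -10 ± 9.40 points in 5 and 4 of 6 animals. The 32 unlisted positions between them were at 2.71% in young and 2.52% in old cultures, so the difference was not seen over the rest of that stretch.

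Among the TRIM and USP genes, 8 of 9 positions were higher in young. TRIM9, a neuronal ubiquitin ligase, had an intronic position on chromosome 10 at 43881981 (- strand) with young levels of 80% to 100% (median 91.5%) and old levels of 50% to 83% (median 67%), a difference of 22.7 ± 18 points in 5 of 6 animals at an even coverage in all cultures. TRIM28, the corepressor of KRAB zinc finger proteins, had an exonic position on chromosome 18 at 65957069 (+ strand) with young levels of 62% to 100% (median 84.5%) and old levels of 52% to 75% (median 60%). Its difference was 20.7 ± 11.8 points in 6 of 6 animals, and no other position within 200 bp was tested. TRIM47, a ubiquitin ligase, was higher in young at a pair of intronic positions 3 bp apart on chromosome 19. At 56374406 (+ strand) the young levels were 7% to 25% (median 22%) and the old levels 0% to 12% (median 0%), and at 56374409 (+ strand) they were 14% to 27% (median 21%) and 0% to 18% (median 0%). These differed by 15 ± 7.29 and 14.7 ± 11.2 points and had equal read counts in 11 of 12 cultures.

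TRIM44 was the 1 TRIM gene higher in old, at an exonic position on chromosome 15 at 67099206 (- strand). Its young levels were 55% to 90% (median 79%) and its old levels 78% to 100% (median 93%), a difference of -16.3 ± 11.9 points in 5 of 6 animals at an even coverage in all cultures. TRIM33, a corepressor of the SMAD pathway, and TRIM56, known from antiviral signalling, were higher in young by 10.7 ± 9.37 and 19.3 ± 17 points. USP42 had an intronic island position on chromosome 25 at 38673566 (+ strand) with young levels of 75% to 100% (median 88.5%) and old levels of 50% to 83% (median 68%), a difference of 21 ± 16.8 points in 5 of 6 animals. USP21, a deubiquitinase of histone H2A, had an exonic position that also lies in the annotated promoter of PPOX. Its 6 old cultures were at 0%, where 0 of 121 reads allow a level of up to 2.48%, or of 5% if each pair of reads was 1 fragment. The young mean of this position was 16.5%, with 6 of 6 animals higher in young (16.5 ± 12.3 points). Its 4 unlisted neighbours were all higher in young (7.04 ± 7.90 points).

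The position within the gene was described over all members. Of the 48 positions, 7 lay in promoters of the member genes, 15 in exons and 28 in introns, HDAC7 being counted as both promoter and intron. A CpG island held 18 of the 48 positions (37.5%), compared with 31.9% of all listed positions in genes. The promoter positions were higher in young in HDAC7 (both strands), CBX8, KDM5C and PRDM13 and higher in old in PRDM14 (2 positions). All 6 old cultures were at 0% at 4 positions higher in young (KDM5C, USP21 and 2 of PRDM1), and the old mean was under 10% at 16 of the 37.

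The opposite strand of the same CpG gave a further look at 20 of the members, although it comes from the same contrast and DNA and is a description too. Of these, 4 were listed themselves (the CpGs of HDAC7 and PRDM1). Of the 16 unlisted partner strands, 14 had a mean difference in the direction of the member and 2 went opposite, at WHSC1L1 and at SMARCB1 73226121. The animals often did not agree. Among the 14, the animals in the direction ranged from 1 of 6 at PRDM14 35917179 (-1 ± 7.13 points) to 5 of 6 at SMARCB1 73227318 and USP21. The mean difference in the member's direction was 18.2 points at the members and 6.90 points at these partner strands. The members had passed a threshold that the partners had not, so these means are not a comparison of like with like.

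Positions nearby went with the members in part. They come from the same contrast and cultures, so they are a description too. Some had the same mean reads as a member, as 54468503 beside SETD8 54468506 (23.3 each), and may share its reads. Within 200 bp of a member, 224 unlisted positions were tested, of which 164 (73.2%) differed in the direction of the nearest member, 50 opposite and 10 not at all. Their mean difference in that direction was 4.36 ± 1.54 points over the 6 animals, from 3 to 7.15 points, against 19.3 points at the members. Without the neighbours of SMARCB1, SETD8 and PRDM1 it was 2.84 points. Around members higher in young, 127 of 159 neighbours were higher in young, with means of 32.3% and 27%. Around members higher in old, 37 of 65 were higher in old, with means of 25.9% in young and 28% in old cultures. Over all tested positions 334544 were higher in young and 296574 were higher in old.

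**Figure D5:**
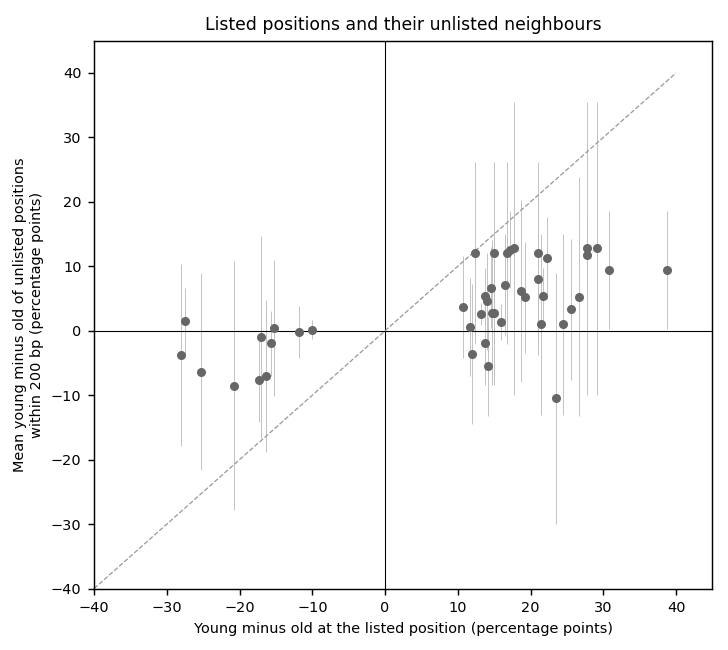
Mean young minus old difference of the unlisted positions within 200 bp (percentage points, y axis; bars are the SD over 6 animals) against the difference at the listed position (percentage points, x axis) for the 45 members that have such neighbours; the dashed line marks equal values. In 38 of the 45 the neighbours' mean has the member's sign, and in each of the 45 it is smaller in size than the member's difference or opposite to it.

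The list's threshold divided values that were much alike. Just inside it were ARID3A 45104432 (11.7 ± 11.5 points) and SMARCB1 73227348 (27.7 ± 26.5 points), whose recomputed P from the ratios with 2 decimals was just above 0.05, and PRDM14 35917179. Just outside it were unlisted positions beside members, such as 73227325 in SMARCB1 (19.2 ± 18.2 points), 100975100 by PRDM12 (29.2 ± 28.8 points) and 44360061 in PRDM1 (14.3 ± 14.2 points, all old cultures at 0%).

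The read counts of some members had an unusual form. At 12 of the 48 positions (25%) each of the 12 cultures had an even read count, compared with 16.7% of all listed and 14.6% of all tested positions. These were 6 of the 11 positions higher in old (54.5%) and 6 of the 37 higher in young (16.2%). Over all listed positions in genes the shares hardly differed by direction, 18.8% of those higher in old and 18.1% of those higher in young. The authors' processing kept the overlapping mates of short fragments and counted each of them, so a read count there can exceed the number of fragments. Without the 12 members of even coverage, 31 of 36 members were higher in young (86.1%), and the like share of the list is not given here. The part of the read counts in these differences was not tested.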

How the data were processed

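RRBS libraries of DNA cut with MspI (the paper's methods also name TaqαI) from 12 cultures (6 heifers at 5 and at 16 months) were sequenced and processed at Zymo Research. Per the submitters' processing notes the tools were CASAVA, FastQC 0.11.1, Trim Galore 0.3.7 and Bismark 0.13.1, with the build bosTau8, and uniquely mapped reads were kept. The authors deposited, for each culture, position and strand, the methylation ratio, a fraction of C over C plus T with 2 decimals, and the coverage, a read count with no normalization. Positions had at least 5 reads in every culture. Columns of the authors' mean difference, p-value and classification were not used, except that their list chose the members and gave their gene region and CpG island annotation. Ratios and coverage of all 14094 listed positions equalled those of the full table.

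The paired test of the methods, with the animal as the pair, was recomputed at all 838705 positions, with an unadjusted P below 0.05 and a mean difference of at least 0.10. This minimum is not stated in the paper's methods. The pairing comes from the animals, since both cultures with a number are of 1 heifer. The deviations from the age means over all positions correlated with a median of 0.0435 (from -0.0024 to 0.0899) within the 6 animals and of -0.0133 between animals. Unlisted positions within 200 bp were described as neighbours, each counted once with its nearest member. Levels per culture were given for genes with 2 or more member CpGs, the 5 other genes per direction with the largest difference, the DNA methylation list and promoter positions, and other members by means. In the direction higher in old 4 such other genes existed. The members, classes and gene lists were chosen with earlier results of these data known. Gene symbols are the authors' (27 of 29 matched a current RefSeq symbol of ARS-UCD2.0, and SETD8 and WHSC1L1 matched as older names). No coordinates of that assembly were used, and no sequence of the build was at hand, so none is shown. The values of 1 member position and of 1 other gene of the lists are not reported here. Positions are 1-based.

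The alternatives were no pairing, a quasi-binomial model, an arcsine scale, no or a larger minimum difference, Benjamini-Hochberg adjustment, more reads, merged strands, ratios from whole reads, 1 value per gene, fewer symbol families, odd coverage, autosomes, other windows, centred ratios and each animal left out. Quantile normalisation and neighbours without SMARCB1, SETD8 and PRDM1 were added after seeing the data. Scripts were tested on simulated data. The tests used scipy 1.17.1 and numpy 2.4.6 under Python 3.11.15, tables pandas 2.3.3, and plots matplotlib 3.10.9.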

Additional observations from a re-analysis of the deposited data

Results flagged for a closer look

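In 10 of 89 groups of 6 cultures at the reported members (11.2%), 1 culture stood apart from the other 5, by a gap to its nearest neighbour that was large for the group's range (Dixon's criterion, 95%). Chance flags about 1 in 20 groups of values with a normal spread, and ratios of few reads take few values.

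Low cultures were the young culture of animal 3 at DNMT3B (11%), the old culture of animal 6 at the second PRMT8 position, 106852728 (60%), and the old culture of animal 5 at SIRT2 48874357 (82%). High cultures among the young were that of animal 1 at PRDM14 35916344 (7%). High cultures among the old were those of animal 2 at HDAC7 32636745 (67%) and SMARCB1 73226121 (10%), of animal 3 at PRDM1 44360065 (8%), of animal 5 at PRDM1 44360066 (12%), of animal 6 at PRMT8 106812197 (6%) and of animal 4 at SMARCB1 73226161 (33%). At HDAC7 32636745 the old culture of animal 2 equalled its young culture, while the opposite strand of that CpG was at 29% in the same culture.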

How the results depend on the processing

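The share of members higher in young, 77.1%, stayed between 70% and 86.1% in all alternatives run, and was 77.1% without any 1 animal. The latter had to be so, since the members were chosen for a mean difference that is large against its spread over the 6 animals. The 70% was that of the 10 members with a difference of at least 25 points. With that minimum, 76% of the positions called over the table were higher in young, so the members' share was not above it. The share was 72.4% with 1 value per gene and 72% without PRDM, ARID3, TRIM and USP, nearer to the 67.5% of the other listed positions in genes. Calls moved more. Against 14129 positions and 46 members called by the paired test, the unpaired test (no replicate block) called 16043 and 43, and the quasi-binomial model 10394 and 30. Without a minimum difference 24094 positions were called, and with a minimum of 25 points it was 3275 positions and 9 members. With at least 10 reads in every culture 2901 positions and 10 members were called, with a median size of 21.2 points and 6 of 10 in 1 direction in all animals, and no member had 20 reads in every culture. After adjustment the paired test called 0 positions and 0 members. Leaving out 1 animal gave 27 to 33 members called (27, 28, 28 and 29 without animals 1, 4, 5 and 6) and 12866 to 14486 positions over the table. The members had been chosen with all 6 animals. Without PRDM, ARID3, TRIM and USP the median size was 21.5 points. The neighbours' mean was 2.53 points within 500 bp and 2.28 points within 1000 bp, where more distant positions enter. Quantile normalisation moved the share of calls higher in young over the table from 66.3% to 56%, with 33 of 43 called members higher in young. All 288 differences of single members without 1 animal kept their sign, which the choice of members fixed in advance, so nothing is read from it. Depth limits each value: 1 read of 12 is 8.33 points, so a difference near 10 points can rest on about 1 read per culture.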
